A study of Homo sapiens with 8 samples.

Results

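The genes described here build cholesterol and fatty acids and respond to the sterol regulatory element-binding proteins (SREBPs). They were chosen by symbol, as the rows of the deposited count table that carry 1 of 30 named symbols, a rule that uses no measured value, although earlier results of these data were known when the symbols were listed. All 30 were found among the 28518 gene rows of the table, and all 30 passed the filter on low counts, as did 14834 genes in all. They fall into 18 enzymes of the sterol pathway, 8 enzymes of fatty-acid synthesis, desaturation and lipid assembly, and 4 genes of sterol sensing and transport (INSIG1, SREBF1, SREBF2 and STARD4).

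The cells of every library were CARD14-knockout HaCaT, human keratinocytes of an immortalised line. CARD14 codes for a scaffold that relays signals to NF-kappaB in epithelia. The cells were transfected with 9 ug of plasmid coding for CARD14 and eGFP, joined by a self-cleaving peptide, the medium was replaced 2 h later, and GFP-positive cells were sorted at 24 h. The plasmid held wild-type (WT) CARD14 or 1 of 3 variants that the series text calls hypomorphic (R820W, N737H and I593T), so every group is a knockout line with a transiently added construct. There were 4 groups with a library A and a library B each. The submitters mention 2 independent experiments, and no label states that the letters stand for them. The number of knockout clones and the promoter of the plasmid are not stated in the labels. Where a p-value compares groups, it measures the spread between these 2 libraries of each.

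Sterol synthesis starts from acetyl-CoA and runs through mevalonate and squalene to lanosterol and cholesterol. SREBP2, the product of SREBF2, drives the genes of that route, while SREBP1, the product of SREBF1, leans towards fatty-acid synthesis. Both are made as membrane precursors that SCAP escorts to the Golgi for cleavage when sterols are scarce, and INSIG1 holds SCAP back when sterols are plentiful. Keratinocytes make much of their own cholesterol and fatty acid, which go into the lipid barrier of the skin.

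Total counts per library ran from 17892608 to 24629860, and between 17836 and 21059 genes had at least 1 count, the most in N737H B. CARD14, which the plasmid supplies to these knockout cells, was at 1127 CPM (counts scaled to library size) in WT A, 1190 in R820W A, 444 in N737H A and 500 in I593T A. In the B libraries it was at 978, 1410, 1005 and 1394 CPM in the same order, so the A libraries of N737H and I593T stood below the other 6. Its counts do not show which construct a library carries. The 8 keratinocyte markers were detected in every library, with a summed level of 3980 to 6537 CPM. Summed levels stayed low for markers of fibroblasts (5 genes, 0.371 to 1.26 CPM), leukocytes (4 genes, 0 to 0.564), melanocytes (4 genes, 1.65 to 3.10) and sebocytes or adipocytes (6 genes, 0.386 to 1.57).

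Promoter sequence was at hand for 26 of the 30 genes, from RefSeq's GRCh38.p14 annotation, and was used for its letters only, since the counts were made on hg19. ACAT2, FDFT1, SQLE and FASN had no entry. The sequences below are the 250 bases before the annotated start of 6 genes, read 5′ to 3′ on the gene's strand. They were chosen because the results turn on these genes: INSIG1 and SREBF2 as regulators, HMGCS1 and LSS as sterol enzymes, SCD as a fatty-acid enzyme, and ELOVL6 as the 1 gene whose difference between letters had the other sign. Capitals mark 4 motifs searched on both strands: TCACNCCAC (a consensus of the SREBP site), CACGTG (the E-box), CCAAT (the NF-Y box, ATTGG on the other strand) and GGGCGG (the SP1 box, CCGCCC on the other strand). NF-Y and SP1 are the usual partners of SREBPs at promoters. SP1 boxes overlap each other once in the INSIG1 window.
INSIG1 (chr7:155297628-155297877, plus strand): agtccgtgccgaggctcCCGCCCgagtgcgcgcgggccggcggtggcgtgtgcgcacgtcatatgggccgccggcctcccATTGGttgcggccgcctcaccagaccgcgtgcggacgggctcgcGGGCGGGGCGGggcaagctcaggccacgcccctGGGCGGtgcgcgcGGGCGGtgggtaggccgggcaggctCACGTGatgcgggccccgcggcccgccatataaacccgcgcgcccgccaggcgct
SREBF2 (chr22:41832855-41833104, plus strand): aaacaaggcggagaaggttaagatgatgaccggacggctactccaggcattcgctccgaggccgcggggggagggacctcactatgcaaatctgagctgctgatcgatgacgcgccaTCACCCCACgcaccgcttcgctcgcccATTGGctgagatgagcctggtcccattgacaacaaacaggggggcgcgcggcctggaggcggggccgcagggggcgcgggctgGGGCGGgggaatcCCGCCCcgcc
HMGCS1 (chr5:43313413-43313662, minus strand): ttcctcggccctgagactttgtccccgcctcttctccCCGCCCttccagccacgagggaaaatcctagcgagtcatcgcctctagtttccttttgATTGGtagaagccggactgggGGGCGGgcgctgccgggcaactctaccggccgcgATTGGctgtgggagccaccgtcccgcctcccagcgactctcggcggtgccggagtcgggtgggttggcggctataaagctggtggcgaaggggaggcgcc
LSS (chr21:46228775-46229024, minus strand): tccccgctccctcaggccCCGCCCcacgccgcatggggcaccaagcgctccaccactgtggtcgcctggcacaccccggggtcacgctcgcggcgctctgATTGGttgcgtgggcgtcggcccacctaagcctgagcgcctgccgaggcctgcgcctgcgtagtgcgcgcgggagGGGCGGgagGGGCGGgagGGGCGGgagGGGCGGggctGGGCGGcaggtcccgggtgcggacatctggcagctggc
SCD (chr10:100346983-100347232, plus strand): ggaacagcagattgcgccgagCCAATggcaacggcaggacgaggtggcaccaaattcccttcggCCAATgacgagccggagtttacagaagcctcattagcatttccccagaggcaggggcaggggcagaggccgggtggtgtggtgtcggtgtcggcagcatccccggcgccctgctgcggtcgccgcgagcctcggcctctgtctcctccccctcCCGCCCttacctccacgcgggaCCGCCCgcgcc
ELOVL6 (chr4:110198616-110198865, minus strand): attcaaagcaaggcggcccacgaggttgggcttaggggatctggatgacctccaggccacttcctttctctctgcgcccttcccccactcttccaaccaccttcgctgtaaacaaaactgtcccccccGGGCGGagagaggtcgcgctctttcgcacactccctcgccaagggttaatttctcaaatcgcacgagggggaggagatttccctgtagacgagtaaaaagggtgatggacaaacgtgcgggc

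Among the 26 windows, the SP1 box was present in 24 (92.3%) and the NF-Y box in 17 (65.4%). Of all 27305 RefSeq windows of the same length, 42.3% held the SP1 box and 33% the NF-Y box. Those windows were not limited to genes expressed in these cells, as the 26 are, and the difference was not tested. The exact SREBP consensus occurred in 1 of the 26 (3.85%), against 0.875% of all windows. It was in SREBF2, 133 bases before the start, which is the run TCACCCCAC in the sequence above. The E-box was present in 2 windows (7.69%), those of INSIG1 and SC5D, against 6.49% of all. ELOVL6 held a single SP1 box and no NF-Y box, and FADS2 held none of the 4 motifs. These are matches of letters, and for 8 genes with several annotated starts the first listed start was taken.

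Together the 30 genes took 0.313% to 0.361% of the counts in the 4 A libraries and 0.522% to 0.561% in the 4 B libraries. Sterol enzymes took 0.225% to 0.263% in A and 0.364% to 0.382% in B. The fatty-acid enzymes took 0.0826% to 0.101% in A and 0.141% to 0.168% in B. None of these ranges overlapped between the letters, whichever construct the cells had received. SCD held more of the fatty-acid share than any other gene of that branch, at 460 to 631 CPM in A and 960 to 1252 CPM in B. ACLY came next, at 137 to 160 CPM in A and 160 to 183 CPM in B, and its letters overlapped. In bulk RNA, a change in the number of cells that express a gene and a change in RNA per cell cannot be told apart.

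**Figure D1:**
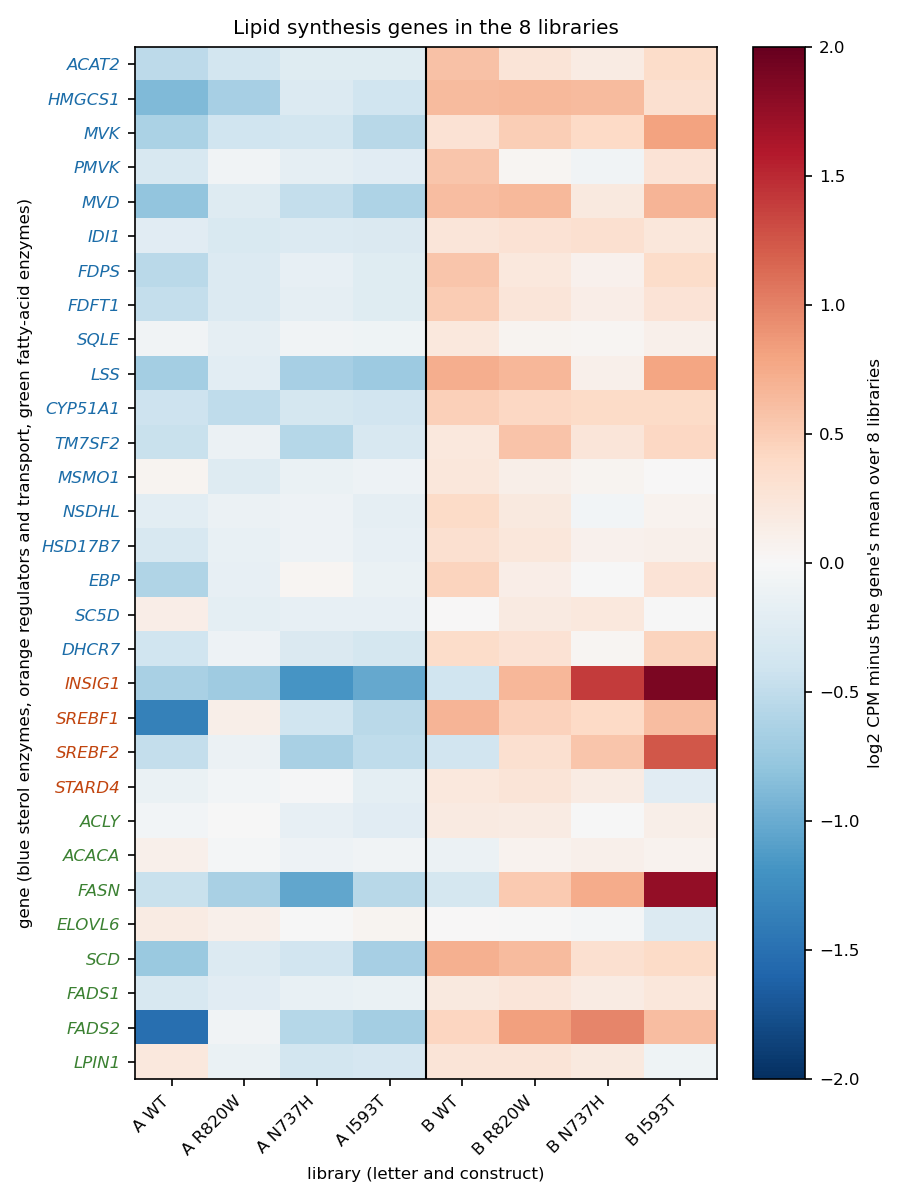
Each row is 1 of the 30 genes and each column 1 library, with the A libraries left of the line and the B libraries right of it. Colour gives log2 CPM minus that gene's mean over the 8 libraries. The A columns are mostly blue and the B columns mostly red, while INSIG1, SREBF2 and FASN are red in B for the variants and not for WT.

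The difference between letters was tested with edgeR as the B term in a fit that also held the construct, over 4 libraries of each letter. The 4 libraries of a letter carry 4 different constructs. Standard errors and p-values of B against A therefore measure how far the gap between letters varied over the constructs. They do not measure a spread between repeats of a letter. The log2 fold change of B against A was above 0 for 29 of the 30 genes, ELOVL6 being the exception. Among all 14834 genes tested it was above 0 for 7953. At an adjusted p under 0.05, 10 genes were higher in B and 0 lower. Of all genes tested, 3.24% passed in either direction, 1.71% as higher and 1.52% as lower in B. The median log2 fold change was 0.58 over the 30 genes and 0.03 over all genes. By branch, the median was 0.58 for the sterol enzymes, with 8 of 18 past the threshold, and 0.36 for the fatty-acid enzymes, with 2 of 8. It was 0.97 for the 4 regulators, of which 0 passed. In 21 of the 30 genes every B library lay above every A library, and in 0 every B library lay below. Over all genes those shares were 8% and 10%. The 21 comprised 15 sterol enzymes, 4 fatty-acid enzymes and 2 regulators. The labels say nothing more of what set the libraries of one letter apart from those of the other.

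The count of 10 rested on particular libraries. Leaving out 1 library removes its construct from the difference between letters, which then rests on 3 constructs. Without either library of R820W or of I593T, 0 of the 30 genes passed, and 0 to 32 of all genes did. In the fit of all 8 libraries, 26 of the 30 genes had an unadjusted edgeR p under 0.05, against 3417 of all 14834. Without either library of N737H or of WT, some of the 30 genes still passed. With each library left out in turn, the median log2 fold change of the sterol enzymes ran from 0.47 to 0.66. The direction held for the same number, 29 of 30 higher in B, in each of these fits.

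**Figure D2:**
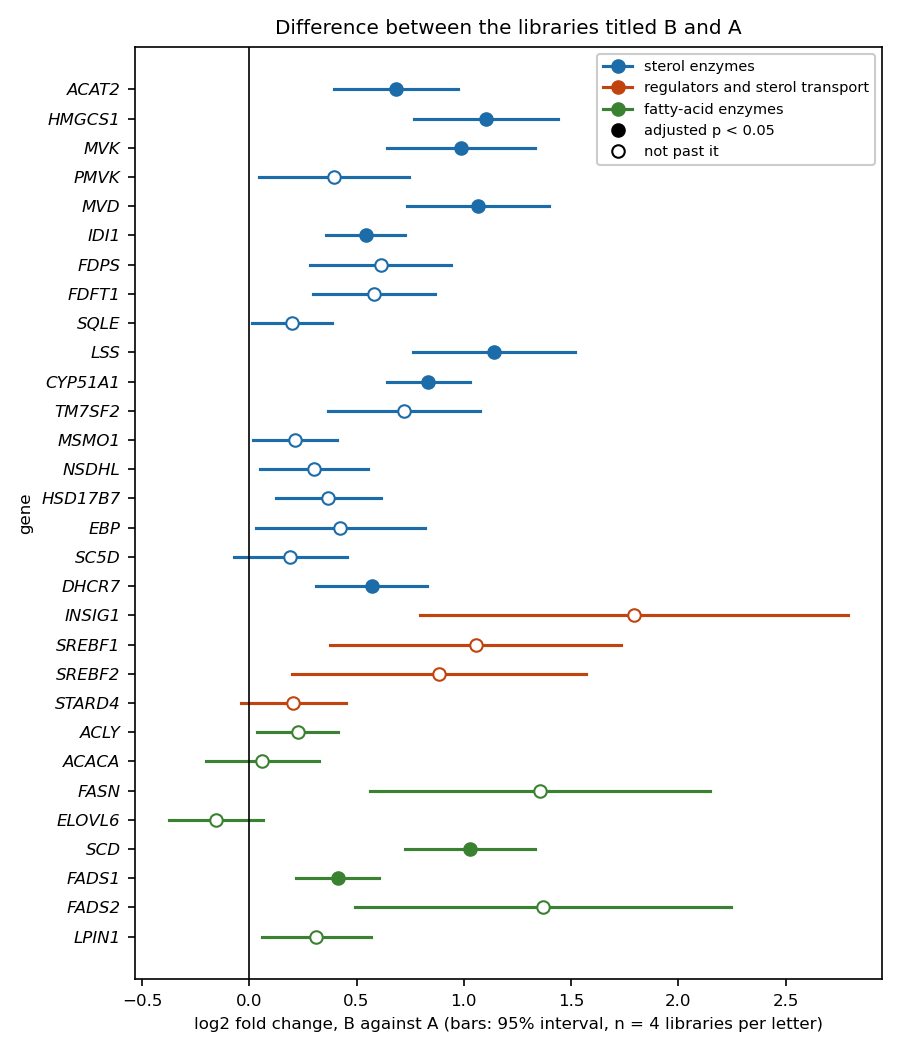
Points give the log2 fold change of B against A for each gene from edgeR with the construct in the fit, and bars its 95% interval over 4 libraries per letter. Filled points have an adjusted p under 0.05. The 10 filled points all lie right of 0, and the widest intervals are those of INSIG1, FADS2 and FASN.

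Of the 6 listed enzymes from ACAT2 to IDI1, all but PMVK passed. HMGCS1 condenses acetyl-CoA with acetoacetyl-CoA on the way to mevalonate. It was at 185, 215, 282 and 259 CPM in the A libraries of WT, R820W, N737H and I593T. In the B libraries it was at 526, 533, 526 and 424 CPM, in the same order of constructs. All B libraries were above all A libraries, and the log2 fold change was 1.11 ± 0.14 (SE, 4 libraries per letter), with an edgeR adjusted p of 0.0151. MVK, which phosphorylates mevalonate, was at 6.27, 7.38, 7.52 and 6.60 CPM in A and at 11.9, 13.7, 12.8 and 17.0 CPM in B. The groups did not overlap, and its log2 fold change was 0.99 (edgeR adjusted p 0.0228). MVD, which decarboxylates the last mevalonate intermediate, was at 19.8, 28.4, 24.6 and 22.4 CPM in A and at 52.2, 53.5, 39.0 and 54.6 CPM in B. The lowest B value, in N737H, still exceeded the highest A value, and the log2 fold change was 1.07 (edgeR adjusted p 0.0161). PMVK, the kinase between MVK and MVD, did not pass, with a log2 fold change of 0.39 (edgeR adjusted p 0.175).

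IDI1 isomerises the first isoprenoid unit and was the most even of these genes. Its A libraries held 156, 148, 152 and 151 CPM and its B libraries 216, 224, 229 and 215 CPM, with a log2 fold change of 0.54 ± 0.08 (SE) and an edgeR adjusted p of 0.0203. FDPS and FDFT1, which make farnesyl diphosphate and squalene, were higher in every B library than in every A library. Their log2 fold changes were 0.61 and 0.58, and their edgeR adjusted p-values of 0.0641 and 0.0525 missed the threshold. ACAT2, which supplies acetoacetyl-CoA, rose by 0.68 on the log2 scale (edgeR adjusted p 0.0383).

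SQLE oxidises squalene and is a rate-limiting step of the route, and it differed little between letters. Its level was 276, 257, 275 and 274 CPM in A and 334, 299, 298 and 312 CPM in B. Although the 2 sets of libraries did not overlap, the log2 fold change was 0.20 (95% interval 0.01 to 0.38), with an edgeR adjusted p of 0.187. LSS, the next enzyme, which closes the ring to lanosterol, was at 10.4, 14.5, 10.6 and 10.1 CPM in A and at 27.6, 26.5, 18.0 and 29.0 CPM in B. Its log2 fold change was 1.14 ± 0.16 (SE), or 2.20-fold (95% interval 1.70 to 2.86), with an edgeR adjusted p of 0.0193.

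Among the enzymes that turn lanosterol into cholesterol, CYP51A1, the lanosterol demethylase, had the smallest p of the 30 genes. Its level was 287, 270, 301 and 294 CPM in A and 535, 514, 502 and 501 CPM in B. The spread within each letter was small beside the gap between them, and the log2 fold change was 0.83 ± 0.08 (SE), with an edgeR adjusted p of 0.00701. DHCR7, the last reductase of the route, also passed, at a log2 fold change of 0.57 (edgeR adjusted p 0.0451). The sterol reductase TM7SF2 was at 3.80, 4.78, 3.49 and 4.15 CPM in A and at 5.99, 7.72, 6.10 and 6.93 CPM in B. It missed the threshold at a log2 fold change of 0.72 and an edgeR adjusted p of 0.0531. The remaining 5 (MSMO1, NSDHL, HSD17B7, EBP and SC5D), which remove methyl groups, shift a double bond or desaturate the ring, had log2 fold changes of 0.19 to 0.43 and did not pass. For MSMO1, EBP and SC5D the A and B libraries overlapped. HSD17B7 and FDPS have near-identical pseudogenes, and how the authors' counting treated shared reads is not given in the sources used here, so their values are uncertain.

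In the fatty-acid branch, SCD, which puts the double bond into saturated fatty acids, was at 460, 631, 589 and 484 CPM in A. In B it was at 1252, 1190, 960 and 1001 CPM. The letters did not overlap, and the log2 fold change was 1.03 ± 0.13 (SE), with an edgeR adjusted p of 0.0151. FADS1, the delta-5 desaturase of polyunsaturated fatty acids, passed with a log2 fold change of 0.41 (edgeR adjusted p 0.0472). Without the filter on low counts it missed the threshold (edgeR adjusted p 0.0536). Its range was 78.9 to 89.6 CPM in A and 110 to 116 CPM in B.

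FADS2, the delta-6 desaturase, had few counts, from 5 in WT A to 26 in N737H B. Its A libraries held 0.229, 0.618, 0.436 and 0.403 CPM and its B libraries 0.869, 1.14, 1.28 and 0.989 CPM. Those levels do not overlap, and the log2 fold change of 1.37 ± 0.37 (SE) had an edgeR adjusted p of 0.0932. The genes that commit carbon to fatty acids differed less: ACLY, which splits citrate to acetyl-CoA, was at a log2 fold change of 0.23, and ACACA, the acetyl-CoA carboxylase, at 0.06. LPIN1, a phosphatidate phosphatase, was at 0.31. ELOVL6, which lengthens palmitate, was at -0.15, with 43.8 to 49.6 CPM in A and 36.4 to 44.7 CPM in B. None of these 4 passed (edgeR adjusted p 0.148 to 0.779), and the A and B libraries of each overlapped.

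FASN, the fatty acid synthase, did not behave as SCD did across constructs. It was at 7.42, 6.43, 4.90 and 6.89 CPM in the A libraries of WT, R820W, N737H and I593T, and at 7.92, 14.5, 16.9 and 33.9 CPM in the B libraries. Every B library was above every A library, by little in WT and by most in I593T. The log2 fold change of B against A was 1.36 ± 0.34 (SE), with an edgeR adjusted p of 0.0764.

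INSIG1, whose product retains SCAP in the endoplasmic reticulum and whose own gene is an SREBP target, showed the same arrangement. Its level was 21.4, 20.4, 14.8 and 16.5 CPM in A and 25.4, 53.1, 87.9 and 124 CPM in B. WT B lay close to the A libraries and the 3 variant B libraries lay well above them. The log2 fold change of B against A was 1.79 ± 0.42 (SE), with an edgeR adjusted p of 0.0692.

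SREBF2, which codes for SREBP2 and carries the SREBP consensus printed above, was at 3.39, 4.33, 3.01 and 3.30 CPM in A and at 3.62, 5.87, 6.94 and 11.1 CPM in B. WT B fell within the range of the A libraries, and I593T B was the highest. Its log2 fold change of B against A was 0.88 (edgeR adjusted p 0.134). SREBF1, which codes for SREBP1, was ordered otherwise. Its A libraries held 1.37, 3.79, 2.67 and 2.42 CPM and its B libraries 5.60, 4.84, 4.63 and 5.39 CPM. Here WT had both the lowest A value, from 30 counts, and the highest B value, and the log2 fold change was 1.06 (edgeR adjusted p 0.0938). STARD4, which carries cholesterol between membranes, was at a log2 fold change of 0.21 and did not pass (edgeR adjusted p 0.281).

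**Figure D3:**
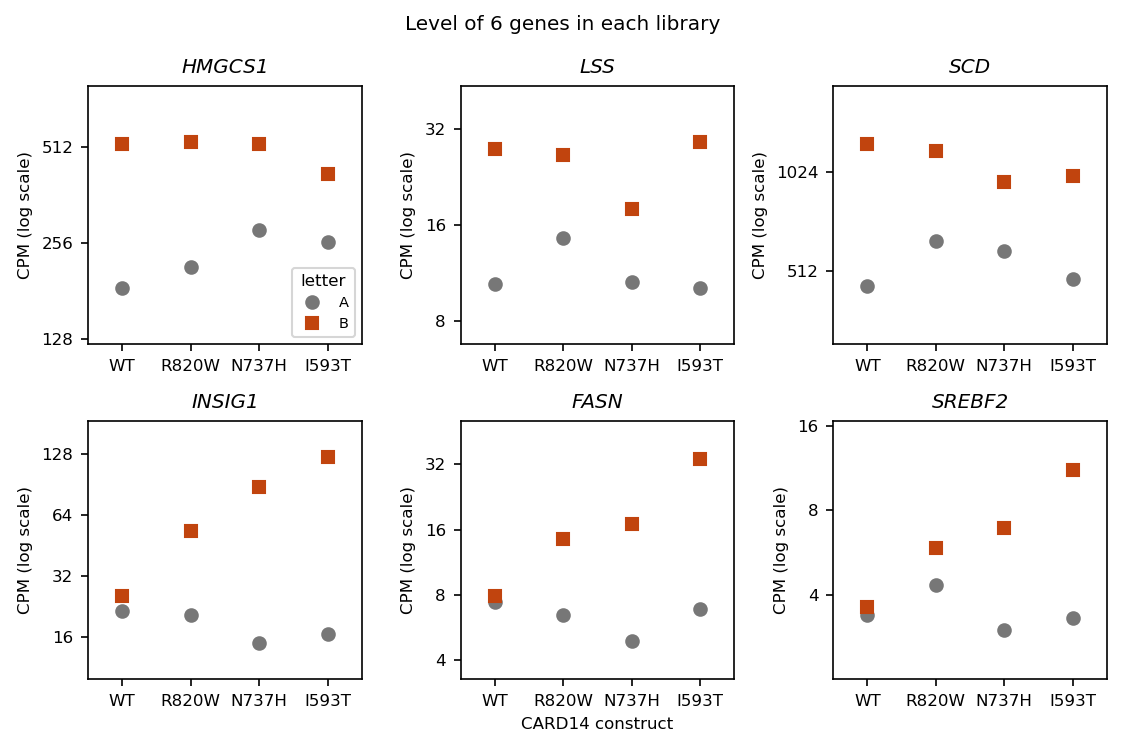
CPM on a log scale is plotted for 6 genes against the construct, with circles for A and squares for B, 1 library per point. For HMGCS1, LSS and SCD the squares lie above the circles in all 4 constructs. For INSIG1, FASN and SREBF2 the WT square lies beside the WT circle, and the squares of R820W, N737H and I593T lie above it.

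The difference between letters was therefore not even over the constructs. For the sterol enzymes, the median log2 difference of B from A was 0.88 in WT, 0.49 in R820W, 0.35 in N737H and 0.56 in I593T. For the 4 regulators the order was different, with 0.30 in WT, 0.39 in R820W, 0.98 in N737H and 1.43 in I593T. The fatty-acid enzymes had medians of 0.16, 0.42, 0.44 and 0.35 in the same order. INSIG1 differed between B and A by 0.25 in WT and by 2.91 in I593T, and FASN by 0.09 and 2.28. HMGCS1 differed by 1.51 in WT and by 0.71 in I593T. Each of these is a difference between 2 single libraries, and the unevenness was not tested.

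The question of the series is how the hypomorphic variants differ from WT CARD14. Over both letters, no gene of the 30 passed edgeR's test for R820W, N737H or I593T against WT, for the variants' mean against WT, or for R820W against N737H, R820W against I593T or N737H against I593T. In these 7 comparisons 0% of all genes passed as well. At an unadjusted p under 0.05 there were 0 of the 30 genes in each, against 154, 362 and 212 of all genes for R820W, N737H and I593T against WT. DESeq2 and limma voom also called 0 of the 30. All 30 of the 95% intervals included 0 in every comparison.

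Those intervals differed in width from gene to gene. Against WT, the standard error of the log2 fold change was smallest for SQLE, at 0.17, and largest for INSIG1, at 0.99 for R820W and 1.00 for N737H and I593T. SQLE gave log2 fold changes of -0.13, -0.09 and -0.06 for R820W, N737H and I593T, with 95% intervals that ran from -0.52 to 0.33 over the 3. HMGCS1 gave 0.07, 0.19 and -0.06, each with a standard error of 0.58, and SCD gave 0.09, -0.14 and -0.20, each with one of 0.54. This fit holds no term for the letter, so the difference between A and B counts towards these errors.

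Branch by branch, the medians against WT lay near those of all genes for the enzymes. The sterol enzymes had a median log2 fold change of -0.05 for R820W, -0.10 for N737H and -0.05 for I593T, and the fatty-acid enzymes had 0.04, -0.05 and -0.05. All genes had -0.01, -0.03 and -0.02. The 4 regulators had 0.42, 0.29 and 0.60, with 4, 4 and 3 of the 4 above 0, and 0 past the threshold. Leaving out single libraries moved the regulators' median for I593T between -0.38 and 1.29 and for N737H between -0.29 and 0.89.

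The largest differences from WT among the sterol enzymes and among the fatty-acid enzymes were as follows. For R820W they were TM7SF2 at a log2 fold change of 0.35 ± 0.43 (SE) and FADS2 at 0.67 ± 0.85. For N737H they were LSS at -0.41 ± 0.61 and FADS2 at 0.64 ± 0.85. For I593T they were MVK at 0.37 ± 0.54 and FASN at 1.41 ± 0.79. Among the 4 regulators it was INSIG1 for each variant, at 0.65 ± 0.99 for R820W, 1.13 ± 1.00 for N737H and 1.58 ± 1.00 for I593T. Each is smaller than 2 standard errors, and the FADS2 values rest on the 5 counts of WT A.

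Within each letter the variants can be set beside the WT library of that letter, as single libraries that share it and allow no test. INSIG1 lay at log2 differences of -0.07, -0.53 and -0.38 from WT in A for R820W, N737H and I593T, and at 1.06, 1.79 and 2.28 in B. FASN lay at -0.20, -0.59 and -0.11 in A and at 0.86, 1.09 and 2.08 in B. SREBF2 lay at 0.34, -0.17 and -0.04 in A and at 0.68, 0.92 and 1.60 in B. SREBF1 had the reverse sign pattern, with 1.41, 0.91 and 0.77 in A and -0.21, -0.27 and -0.05 in B. Without the B library of a variant, the fitted sign of INSIG1 and FASN for that variant turned negative. CARD14 itself was higher in the B than in the A library of each variant and lower in that of WT, and its part in these values was not tested.

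**Figure D4:**
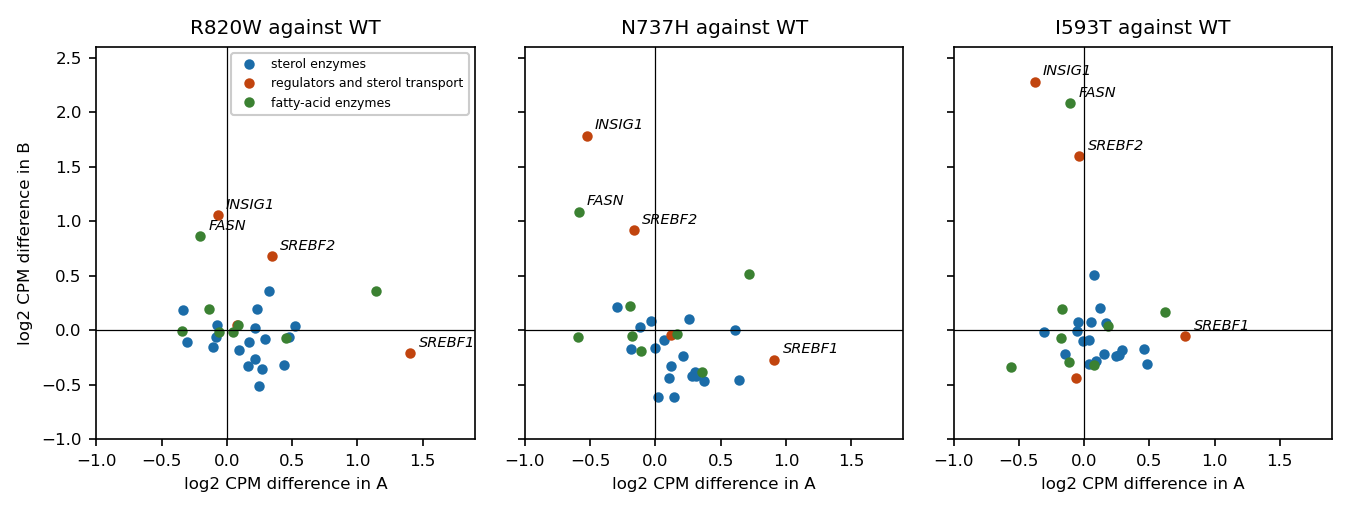
Each point is 1 of the 30 genes, placed by its log2 CPM difference of the variant from WT in the A libraries (horizontal) and in the B libraries (vertical). INSIG1, FASN and SREBF2 lie highest in each panel, at 2.28, 2.08 and 1.60 in B for I593T, and close to or left of 0 in A except SREBF2 in R820W. Points of 1 panel share the same 4 libraries, and the 3 panels share the WT libraries.

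The sterol enzymes as a set were ordered in the opposite way. Their median log2 CPM, centred on each gene's mean over the 8 libraries, was -0.43 in WT A and -0.25 to -0.21 in the A libraries of the variants. In B it was 0.42 in WT and 0.12 to 0.30 in the variants. WT was thus the lowest library of A and the highest library of B. In EBP, the sterol isomerase, the A libraries were at 176, 238, 274 and 242 CPM and the B libraries at 364, 292, 265 and 323 CPM in the order WT, R820W, N737H and I593T, with WT at both ends.

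Other genes of sterol and lipid metabolism were read from 7 lists. Their counts past the threshold between letters stand beside 1.71% of all genes tested as higher in B and 1.52% as lower. Of 9 measured genes that process SREBPs (of 10 listed), 3 were higher in B and 6 lower, with a median log2 fold change of -0.02 and 0 past the threshold. SCAP, the escort of SREBPs, was at a mean of 4.11 CPM in A and 5.25 CPM in B (log2 fold change 0.33, edgeR adjusted p 0.360), and INSIG2, the paralog of INSIG1, at 88.3 and 75.5 CPM (-0.22, adjusted p 0.216). Against WT, the gene of smallest p in that list was the site-2 protease MBTPS2 in I593T, at -0.31 (unadjusted p 0.0791).

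Of 7 genes of sterol export and the liver X receptors, 5 were higher in B, with a median of 0.24, and 1 passed, as lower in B. It was ABCA1, the cholesterol exporter, which fell from a mean of 16.8 CPM in A to 9.98 CPM in B (log2 fold change -0.74 ± 0.14, edgeR adjusted p 0.0417). Of 10 tested genes of sterol trafficking and esterification, 3 were higher, with a median of -0.05. CAV1, which codes for the caveola protein caveolin-1, passed as lower at -0.45 (edgeR adjusted p 0.0417). The 12 genes of the isoprenoid branch had a median of -0.05 and 0 passed. There the smallest p against WT was that of COQ2, an enzyme of coenzyme Q synthesis, in I593T, at 1.60 ± 0.62 (unadjusted p 0.0332).

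Acetyl-CoA and NADPH supply held 8 genes, of which 5 were higher in B, with a median of 0.22. ACSS2, which makes acetyl-CoA from acetate, passed as higher, from a mean of 18.1 CPM in A to 38.3 CPM in B (log2 fold change 1.06 ± 0.20, edgeR adjusted p 0.0423). Of 18 genes of fatty-acid activation, elongation and storage, 8 were higher, with a median of -0.04, and 2 passed. They were ACSL1, a long-chain acyl-CoA synthetase, from 15.7 to 33.9 CPM (1.09 ± 0.13, edgeR adjusted p 0.0151), and SCD5, a second stearoyl-CoA desaturase, at 0.80 (edgeR adjusted p 0.0295). The 12 genes of epidermal ceramide synthesis had a median of -0.11, with 2 higher in B. DEGS1, the dihydroceramide desaturase, passed as lower at -0.41 (edgeR adjusted p 0.0469). No gene of the 7 lists passed in a comparison with WT or between variants.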

How the data were processed

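RNA-seq of 8 GFP-sorted libraries was analysed, from 4 groups of 2. The values are raw counts per gene symbol in 1 table that the authors deposited, as whole numbers that were not normalised. FastQC, MACS2, DESeq2 and hg19 are named, without roles, in the submitters' processing notes. The aligner, counter, annotation and strand setting: not given in the sources used here, so overlapping or antisense genes may share reads.

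Groups and letters came from the labels. From 28518 gene rows, filterByExpr kept 14834 genes holding 99.9% of the counts. Counts were scaled by TMM and fitted with edgeR 4.0.16 (R 4.3.3) on all 8 libraries, by quasi-likelihood and two-sided tests, with Benjamini-Hochberg adjustment over all genes tested and a threshold of 0.05. The 7 comparisons of groups used group means (4 residual degrees of freedom). B against A was the letter term beside the construct (3 residual degrees of freedom). CPM values use the scaled library sizes, differences within a letter use log2 CPM with a prior count of 2, and intervals are at 95%. The pipeline was tested on simulated counts.

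Alternatives were other scaling (RLE, total counts), no filter, at least 10 counts in 6 libraries, DESeq2 1.42.0, limma voom (3.58.1), the letter as a block, the compared groups alone, and each library left out. The genes given in every library were 7 set by name, the largest differences per branch and variant, and the 6 of smallest p between letters; EBP was added after its values were seen. From other lists, genes past the threshold or of smallest p against WT are named, with SCAP and INSIG2 added. All members and lists were chosen with earlier results of these data known. MARCH6 was not matched in the table, in which 27 names look like dates.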

Additional observations from a re-analysis of the deposited data

Results flagged for a closer look

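Within a letter, 6 of 60 checks of the 30 genes found a library far from the other 3, by Dixon's test at its 95% critical value for 4 values, where chance alone flags about 1 check in 20. HMGCS1 was at 423.55 CPM in I593T B, against 526 to 533 CPM in the other B libraries. MVD was at 39.0 CPM in N737H B, against 52.2 to 54.6 CPM. ACACA was at 22.6 CPM in WT B, against 25.9 to 26.5 CPM. Among the A libraries, SQLE was at 257 CPM in R820W A, against 274 to 276 CPM, and LSS was at 14.5 CPM in that library, against 10.1 to 10.6 CPM. SC5D was at 70.6 CPM in WT A, against 56.0 to 57.4 CPM.

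In 12 of the 30 genes (40%) all 3 variants lay on one side of WT in A and on the other side in B, as in 25.6% of all 14834 genes tested. The 3 differences of a letter share 1 WT library, and the difference between letters was not tested. In 9 of the 12 the variants were above WT in A and below it in B, as in 2134 of the 3794 such genes among all tested. The mean log2 difference of the variants from WT, B minus A, was -0.56 for ACAT2, -0.63 for PMVK, -0.65 for FDPS and -0.55 for FDFT1. For NSDHL it was -0.39, for HSD17B7 -0.37 and for EBP -0.83, which makes 7 sterol enzymes. For SREBF1 it was -1.21 and for SCD -0.55. The other 3 had the reverse order, with 2.03 for INSIG1, 1.64 for FASN and 0.37 for ACACA.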

How the results depend on the processing

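Between letters, 29 of the 30 genes were higher in B under each setting run, against 7953 of all 14834 genes in the main fit. In that fit 3.24% of all genes passed, and the shares under other settings were not set beside the counts that follow. For the 30, the count past the threshold was 10 to 13 with RLE scaling, total counts, no filter, the stricter filter or limma voom. It was 16 with DESeq2, 18 with the letter alone and no construct term, and 0 to 17 with 1 library left out; fewer constructs then carry both letters. The count past the threshold was 0 of 30 in each of the 7 comparisons of groups under every setting run. Deviations from the group means, for libraries that share a letter, correlated at 0.0242 between WT and N737H. For the other 5 pairs of groups they correlated at 0.312 to 0.410. The first principal component (33.3% of the variance) parted A from B. The common estimate of edgeR for the spread between libraries (its coefficient of variation) was 0.26 without the letter in the fit and 0.19 with it. No label states that the letters pair the libraries, and the main comparisons of groups held no letter term. With the replicate block, 0 of 30 genes passed against WT for each variant and for their mean, and all-gene counts at an unadjusted p under 0.05 were 384, 670, 500 and 527.

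The median of the fatty-acid enzymes against WT was 0.068 for N737H with total counts, and for R820W 0.14 with total counts and 0.080 with at least 10 counts in 6 libraries. With total counts the median of all genes moved to 0.08 for R820W and 0.09 for N737H, and without a filter that of B against A moved to 0.12. With 1 library left out (a lone library is then assumed to vary as the other groups do), the medians of the sterol enzymes ranged from -0.30 to 0.49 for R820W, -0.37 to 0.38 for N737H and -0.35 to 0.51 for I593T. Those of the fatty-acid enzymes ranged from -0.12 to 0.23, -0.26 to 0.14 and -0.23 to 0.19, and those of the regulators from 0.022 to 0.68, -0.29 to 0.89 and -0.38 to 1.29. Single genes that changed sign against WT when 1 library was left out ranged as follows, and the cause was not tested. For R820W, TM7SF2 ranged from -0.018 to 0.71, FASN from -0.24 to 0.92 and INSIG1 from -0.18 to 1.18. For N737H, FADS2 ranged from -0.31 to 1.87, FASN from -0.63 to 1.12, INSIG1 from -0.64 to 1.89, LSS from -0.90 to 0.44 and SREBF2 from -0.20 to 0.97. For I593T, FASN ranged from -0.16 to 2.14, INSIG1 from -0.51 to 2.40, MVK from -0.46 to 0.90 and SREBF2 from -0.087 to 1.66. The fit of the compared groups alone was not run for B against A or for the mean of the variants, and branch medians between variants were not recomputed.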
